A study of Mus musculus with 6 samples.

Results

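The genes described here are 10 transcription factor genes of early blood progenitors that are also oncogenes of T-cell acute lymphoblastic leukaemia (T-ALL): Lyl1, Tal1, Lmo1, Lmo2, Hhex, Meis1, Mef2c, Erg, Spi1 and Bcl11a. They were chosen by name, and every probe set that the platform annotation assigns to one of them alone was taken, which gave 23 of 45037 probe sets and all 10 genes among 18193 named genes. The leukaemias were driven by an activated Notch1 allele, Notch1[delta]E, in mice of genotype Notch1[delta]E mycGFP, strain C57BL/6, aged 12 weeks. Spleen cells positive for Notch1-deltaE and for CD25 were taken from congenic recipients 4 weeks after transplantation and sorted on mCherry and GFP. MycGFP positive cells (3 arrays) were set against MycGFP negative cells (3 arrays), and both groups carry the same driver, the same reporter and the same host background. The arrays of each group are numbered 1 to 3, and the design text describes 3 independent leukaemias. The labels do not name the promoter that drives Notch1[delta]E, and the host cells that remained in the sorted spleen fraction are not described. In bulk RNA, fewer cells of a type and less RNA per cell cannot be told apart.

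TAL1 and LYL1 are basic helix-loop-helix proteins that pair with E proteins on DNA, and LMO1 and LMO2 are LIM-only bridging proteins that join such pairs to LDB1 and GATA factors. In normal thymus most of these factors are active in the earliest progenitors and are silenced as cells commit to the T lineage. In human T-ALL each of several of them can be switched on aberrantly, and cases are commonly grouped by which one is active.

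Most values of the 10 genes were weak, and none of the genes was called different between MycGFP positive and MycGFP negative cells. Among all 18193 genes 6.13% were called at an adjusted p under 0.05 (limma, Benjamini-Hochberg over all genes), made up of 4.62% with MycGFP positive cells above and 1.51% with them below, so 0 of 10 is near that background. At an unadjusted p under 0.05 limma also counted 0 of the 10 genes, against 22.1% of all genes. For none of the 10 did the 3 positive arrays lie apart from the 3 negative arrays, a separation found in 28.1% of all genes. The median log2 difference of the 10 genes was 0.10, against 0.01 over all genes. Lmo1 and Mef2c varied more with the array number than with the sort, as did some Bcl11a probe sets other than the one that represents the gene. Both arrays of one number lay above the other 4 for 3 of the 10 genes, against 19.8% of all genes, and no gene was called for the number (limma), so these counts too are near background.

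Values are intensities as deposited, summarised with RMA (a method that combines the probes of a probe set and scales the arrays to one another), on a linear scale. The median of all probe sets on an array was 30.5 to 32.7, and 20 of the 60 values of the 10 genes lay above the median of their own array. No detection calls were used, and 21 genes of other organs (such as liver, eye and testis) served as a guide to dim signal, with a median of 19.0 and a 90th percentile of 42.5 over 126 values. Of these 60 member values, from 1 probe set a gene, 7 exceeded that 90th percentile, and they belonged to 4 genes. Over all 23 member probe sets 13 of 138 values exceeded it, the highest being 281 in a Bcl11a probe set on positive array 1. The highest of the 126 guide values was 181. The sort itself was visible in Myc, with intensities of 2628, 3390 and 2274 on positive arrays 1, 2 and 3, against 801, 1135 and 1303 on negative arrays 1, 2 and 3.

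**Figure D1:**
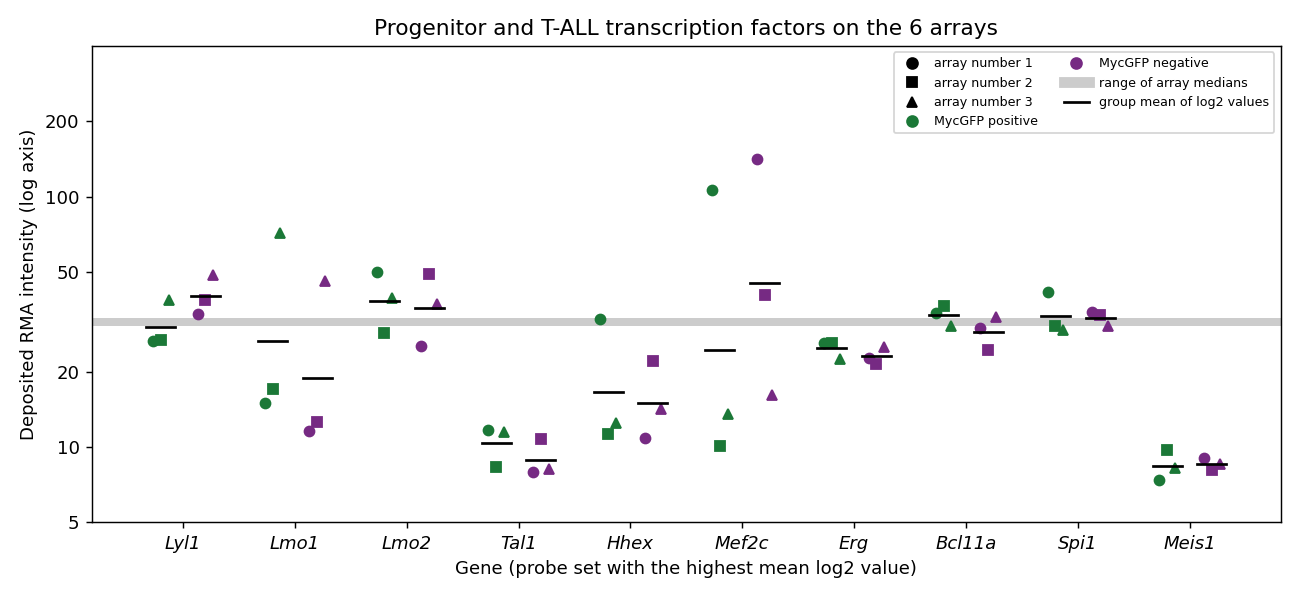
Deposited intensity (log axis) of the probe set with the highest mean log2 value of each of the 10 genes, MycGFP positive left of MycGFP negative, with a symbol for each array number, a line at the group mean of log2 values and a grey band over the array medians (30.5 to 32.7). The groups overlap for every gene, and Lmo1 (number 3) and Mef2c (number 1) split by array number.

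Lyl1 is the helix-loop-helix relative of Tal1 that is active in immature T-ALL. Its probe set read 26.5, 26.9 and 38.8 on positive arrays 1, 2 and 3, against 34.0, 38.8 and 48.5 on negative arrays 1, 2 and 3. Positive array 3 stood above negative array 1, so the groups overlapped, but within each number the positive array was the lower one. The mean was 30.7 ± 7.0 in MycGFP positive and 40.4 ± 7.37 in MycGFP negative cells (SD, n = 3 each), with a log2 difference of -0.40, SE 0.22 (limma, adjusted p = 0.357). The 95% interval ran from -0.93 to 0.12. The differences within array numbers 1, 2 and 3 were -0.36, -0.53 and -0.32 on the log2 scale. With the array number as a block the SE was 0.13 and the adjusted p 0.153 (limma), so the call did not change.

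Lmo1, a LIM-only gene first found at a chromosome break in T-ALL, was the gene most clearly split by array number. It read 15, 17.0 and 71.9 on positive arrays 1, 2 and 3, against 11.6, 12.6 and 46.1 on negative arrays 1, 2 and 3. Both arrays numbered 3 stood above the array medians, and the other 4 stood below them. The mean was 34.6 ± 32.3 in MycGFP positive and 23.4 ± 19.6 in MycGFP negative cells (SD, n = 3 each), and the log2 difference was 0.48, SE 0.79 (limma, adjusted p = 0.799). Within numbers 1, 2 and 3 the log2 differences were 0.38, 0.43 and 0.64, each with the positive array higher. The block lowered the SE to 0.14 and the adjusted p to 0.117 (limma), which still missed the threshold. Without positive array 3 the log2 difference was -0.24, and without negative array 3 it was 1.13, so leaving out either array of number 3 moved its sign or its size.

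Lmo2, which is needed for blood stem cells and was activated by vector insertion in gene therapy leukaemias, read 50.2, 28.6 and 39.2 on positive arrays 1, 2 and 3, against 25.3, 49.2 and 37.4 on negative arrays 1, 2 and 3. The highest positive and the highest negative array carried different numbers, and the log2 differences within numbers were 0.99, -0.78 and 0.07. The pooled log2 difference was 0.09, SE 0.31 (limma, adjusted p = 0.921), with a 95% interval of -0.67 to 0.85. Tal1, the founding factor of the complex, lay below the median on all 6 arrays, at 8.27 to 11.7 in MycGFP positive and 7.94 to 10.7 in MycGFP negative cells. Its log2 difference was 0.22, SE 0.20 (limma, adjusted p = 0.612). Its probe set therefore gave no signal that could be told from dim probe sets in either group.

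Hhex, a homeobox gene that acts downstream of LMO2 in mouse thymocyte self-renewal, read 32.5, 11.3 and 12.5 on positive arrays 1, 2 and 3, against 10.8, 22.0 and 14.2 on negative arrays 1, 2 and 3. Only positive array 1 exceeded the median of its array. The log2 differences within numbers were 1.58, -0.97 and -0.18, and the pooled one was 0.15, SE 0.47 (limma, adjusted p = 0.915), with a 95% interval of -1.0 to 1.29. Meis1, a TALE homeobox gene of stem cells that works with HOX and PBX proteins, had 3 probe sets, all below the median on every array. The brightest ran from 7.38 to 9.75 in MycGFP positive and from 8.08 to 9.06 in MycGFP negative cells (log2 difference -0.03, SE 0.15, limma adjusted p = 0.951). The adjusted p of its other probe sets was 0.569 and 0.961 over all 45037 probe sets.

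Mef2c encodes a MADS-box factor of lymphoid progenitors, B cells and immature human T-ALL. Its brightest probe set read 106, 10.1 and 13.5 on positive arrays 1, 2 and 3, against 142, 40.3 and 16.1 on negative arrays 1, 2 and 3. Both arrays numbered 1 were high, negative array 2 lay a little above its median, and the other 3 were dim. The mean was 43.2 ± 54.5 in MycGFP positive and 66.1 ± 66.7 in MycGFP negative cells (SD, n = 3 each), so the SD exceeded the mean in each group. The log2 difference was -0.89, SE 1.14 (limma, adjusted p = 0.734), with a 95% interval of -3.65 to 1.87. Its other 4 probe sets disagreed in sign, with log2 differences of -0.68 to 0.40 and adjusted p of 0.416 to 0.920 over all probe sets. One of these read 86.6, 16.8 and 8.03 on positive arrays, against 17.5, 24.6 and 11.9 on negative arrays, so there positive array 1 alone was high.

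Erg and Spi1 are ETS factors. Erg, which supports stem cells and is also an endothelial gene, had 2 probe sets that never exceeded the array medians. The brighter ran from 22.4 to 26.1 in MycGFP positive and from 21.5 to 25.2 in MycGFP negative cells (log2 difference 0.10, SE 0.14, limma adjusted p = 0.742). Spi1, which encodes the myeloid and B cell factor PU.1 that T cells silence at commitment, read 41.5, 30.3 and 29.4 on positive arrays 1, 2 and 3, against 34.4, 33.5 and 30.5 on negative arrays 1, 2 and 3. Its values lay near the array medians, and the log2 difference was 0.02, SE 0.17 (limma, adjusted p = 0.963). The 95% interval of this intensity difference was -0.40 to 0.45. For a probe set this dim it does not bound a difference in Spi1 RNA.

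Bcl11a encodes a zinc finger factor of B cells, dendritic cells and stem cells, and had 7 probe sets. The one with the highest mean log2 value read 34.2, 36.6 and 30.4 on positive arrays 1, 2 and 3, against 29.8, 24.5 and 32.9 on negative arrays 1, 2 and 3, and carries the suffix _x_at, which marks probes that may cross-hybridise. It was flat across the arrays (log2 difference 0.22, SE 0.16, limma adjusted p = 0.515). The probe set with the highest single value differed from it, with 281, 11.8 and 12.9 on positive arrays 1, 2 and 3, against 51.9, 11.1 and 16.5 on negative arrays 1, 2 and 3. There both arrays numbered 1 stood high and positive array 1 stood highest. Its log2 difference was 0.72, SE 1.33 (limma, adjusted p = 0.822 over all probe sets). Both arrays numbered 1 were also the highest in 2 other Bcl11a probe sets. One read 24.7, 3.72 and 5.75 on positive arrays 1, 2 and 3, against 14.8, 6.30 and 6.12 on negative arrays 1, 2 and 3. The other read 50.5, 10.1 and 11.4 on positive arrays, against 14.4, 14.0 and 9.23 on negative arrays. There positive array 1 alone stood out, since negative arrays 1 and 2 were almost equal.

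**Figure D2:**
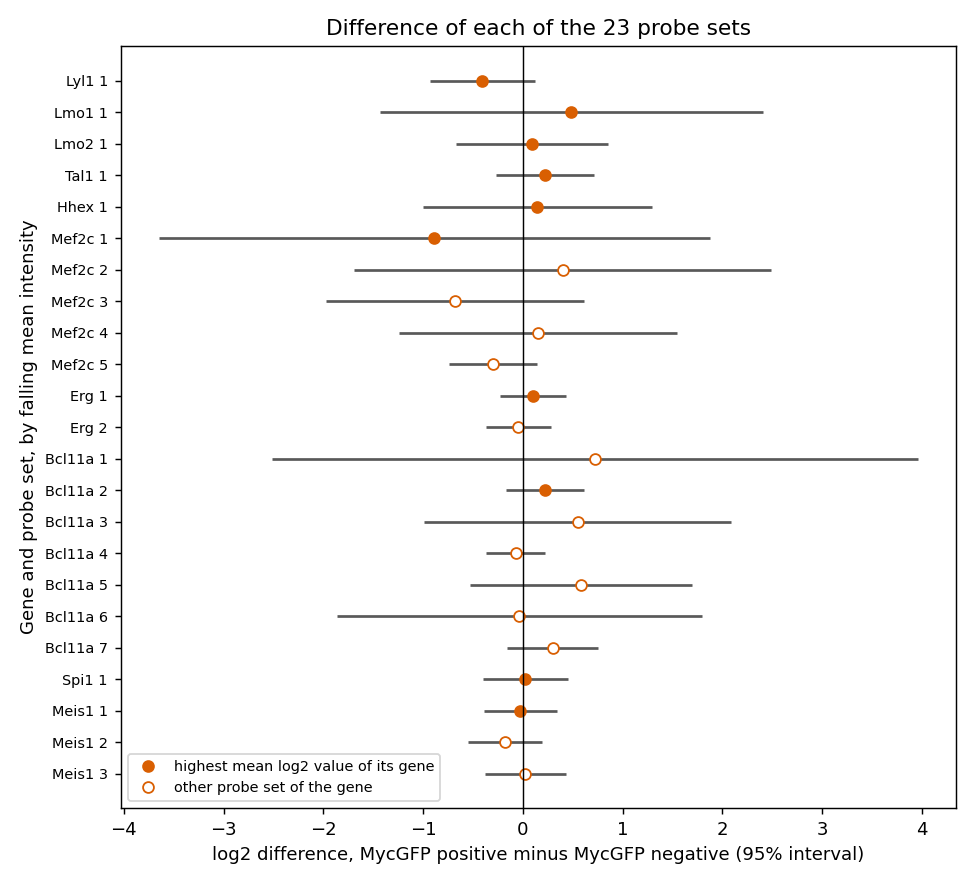
Log2 difference, MycGFP positive minus MycGFP negative, of each of the 23 probe sets with its 95% interval from limma. All 23 intervals include 0, and 14 differences were above and 9 below 0.

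Over all 23 probe sets 14 log2 differences were above 0 and 9 below. None was called, against 6.81% of all 45037 probe sets (4.01% higher and 2.8% lower in MycGFP positive cells), and none had groups that did not overlap, against 28.4%. Of the 23 probe sets 10 lay below the median on all 6 arrays and 0 lay above it on all 6.

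The array number was then examined as a factor of its own. The numbers were taken as pairs by assumption, since arrays of the same number deviated together over all genes and the design text describes 3 leukaemias. For Lmo1, Mef2c and Spi1 both arrays of one number lay above the other 4, which held for 19.8% of all genes. Among probe sets this held for 6 of 23, against 18.6% of all probe sets, and 3 of the 6 were Bcl11a probe sets. The fold of the high number over the other numbers was 4.14 for Lmo1 (number 3), 7.12 for the Mef2c probe set with the highest mean log2 value (number 1), 9.35 for the Bcl11a probe set with the highest single value (number 1) and 1.22 for Spi1 (number 1). The Bcl11a probe set with the highest mean log2 value had a fold of 1.04. The other arrays of Lmo1 and of the Bcl11a probe set at 9.35, and 3 of the other 4 of Mef2c, lay below the 19.0 median of the guide to dim signal, so their folds rest on dim values and are not exact. In a limma F test of the number beside the group, no gene of 18193 was called, 0% of all genes, and 10.2% had an unadjusted p under 0.05. The unadjusted p was 0.000205 for Lmo1 and 0.00450 for Mef2c, and these were the 2 member genes under 0.05. Their adjusted p was 0.170 and 0.290. Over probe sets 4 of 23 members were under 0.05 unadjusted, against 9.41% of all, and 2 of these were Bcl11a probe sets (unadjusted p = 0.0149 and 0.0114, adjusted p = 0.441 and 0.430). These differences are therefore descriptions of 3 numbered pairs and did not pass the adjustment. Within the pairs, the block fit gave 2 member genes with an unadjusted p under 0.05, Lyl1 (lower in MycGFP positive cells) and Lmo1 (higher), against 25.4% of all genes. With the block none of the 10 was called, against 7.7% of all genes, 1.95% being lower in MycGFP positive cells.

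Stretches of DNA before the transcription start are shown for Lmo1, Mef2c and Bcl11a, the genes with a probe set under 0.05 unadjusted for the array number, with every CANNTG (the E-box bound by helix-loop-helix pairs) in capitals. Each is 250 bases, from RefSeq on build GRCm38.p6, and for Lmo1 and Mef2c the most upstream annotated start was used. They lie at chr7:109175208-109175457 (Lmo1, minus strand), chr13:83503784-83504033 (Mef2c, plus strand) and chr11:24080445-24080694 (Bcl11a, plus strand).
Lmo1: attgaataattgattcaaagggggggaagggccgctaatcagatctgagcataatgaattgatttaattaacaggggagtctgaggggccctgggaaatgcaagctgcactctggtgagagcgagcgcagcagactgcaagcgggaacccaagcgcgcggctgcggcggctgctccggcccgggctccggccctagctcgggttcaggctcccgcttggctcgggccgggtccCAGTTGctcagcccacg
Mef2c: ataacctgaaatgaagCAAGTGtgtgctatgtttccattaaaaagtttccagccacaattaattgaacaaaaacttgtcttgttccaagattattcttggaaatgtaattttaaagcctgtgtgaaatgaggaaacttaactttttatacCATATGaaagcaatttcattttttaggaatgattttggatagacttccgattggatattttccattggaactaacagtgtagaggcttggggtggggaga
Bcl11a: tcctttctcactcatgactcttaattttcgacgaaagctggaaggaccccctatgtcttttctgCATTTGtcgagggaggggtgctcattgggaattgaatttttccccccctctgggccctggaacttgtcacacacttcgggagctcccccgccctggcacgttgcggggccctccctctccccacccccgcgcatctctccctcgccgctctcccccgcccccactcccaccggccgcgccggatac
RefSeq windows existed for 8 of the 10 genes, 14 windows in all, and not for Lmo2 and Spi1. Each motif was searched on both strands. CANNTG was found in 8 of the 14 windows, against 66.2% of 32851 windows of the same length in the RefSeq table. The windows of Lmo1 overlap and hold the same CAGTTG, so that match is counted more than once. The form preferred by MYC and MAX, CACGTG, is one of the letter strings that an E-box allows, and it was found in 0 of the 14 windows, against 6.02% of all windows. A sequence of GATA factors, AGATAA, was found in 2 member windows, those of Tal1 and Erg, against 9.99% of all windows. An ETS sequence that PU.1 favours, GAGGAA, was found in 4 windows of Lyl1, Tal1 and Mef2c, against 23.3% of all windows. The sequence of the NOTCH partner RBPJ, GTGGGAA, was found in 0 of the 14, against 5.42% of all windows. A match says only that the letters are present in the window.

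Markers of other cell types moved with the array number too, and their part in the values of Mef2c, Bcl11a and Spi1, which B cells and myeloid or dendritic cells also express, was not tested. Of 11 measured B cell markers 5 were highest on both arrays numbered 1, against 9.24% of all genes, as were 3 of 14 myeloid markers (Cd14, Adgre1 and Ctss) and 3 of 10 genes listed as dendritic cell markers (Flt3, Cd209a and Ly6d). Ly6d is also a gene of lymphoid progenitors and B cells, so it does not mark dendritic cells alone. Ms4a1, which encodes CD20 and was named after its values were seen, read 172, 9.43 and 18.3 on positive arrays 1, 2 and 3, against 117, 14.5 and 20.6 on negative arrays 1, 2 and 3. Cd79b, the brightest of the B cell markers, was highest on negative array 3, at 645, while Pax5, the defining B lineage factor, ran from 19.1 to 26.2 in MycGFP positive and from 21.2 to 29.4 in MycGFP negative cells. The summed B cell markers ran from 198 to 591 in MycGFP positive and from 298 to 886 in MycGFP negative cells. None of the 11 was called without the block, and with it Cd79b was lower in MycGFP positive cells (limma adjusted p = 0.0452). The block fit called 1.95% of all genes lower.

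Of the 14 myeloid markers 6 others were highest on both arrays numbered 2, against 3.18% of all genes, and the list's sum ran from 636 to 3366 in MycGFP positive and from 644 to 11394 in MycGFP negative cells. Mpo, the granule enzyme of neutrophil precursors, also named after its values were seen, read 13.4, 499 and 8.19 on positive arrays 1, 2 and 3, against 10.5, 622 and 11 on negative arrays 1, 2 and 3. S100a9, the brightest in MycGFP negative cells, reached 4372 on negative array 2, and Ctss, the brightest in MycGFP positive cells, reached 886 on positive array 1. None of the 14 was called without the block, and with it S100a9 was lower in MycGFP positive cells (limma adjusted p = 0.0482), against 1.95% of all genes.

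For Lmo1, whose high arrays were those numbered 3, Il2ra, Itgax and Pf4 were the marker genes highest on both of those arrays, a pattern of 7.37% of all genes. Il2ra, which encodes the sorted antigen CD25, read 5396, 7876 and 9462 on positive arrays 1, 2 and 3, against 6777, 8019 and 10857 on negative arrays 1, 2 and 3. The defining T cell gene Cd3e was bright on every array, at 9626 to 10940 in MycGFP positive and 11704 to 13390 in MycGFP negative cells. Of 10 measured T cell markers 1 was called, Cd5, an inhibitory receptor, which was lower in MycGFP positive cells (log2 difference -0.65, SE 0.13, limma adjusted p = 0.0411, and 0.0634 with the block). Over all genes 1.51% were called lower. An unadjusted p under 0.05 (limma) with positive cells lower was found in 3 of the 10, against 7.35% of all genes. In 5 of the 10 all positive arrays lay below all negative ones, against 11.2%. The opposite order was found in 0 of the 10, against 17%.

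**Figure D3:**
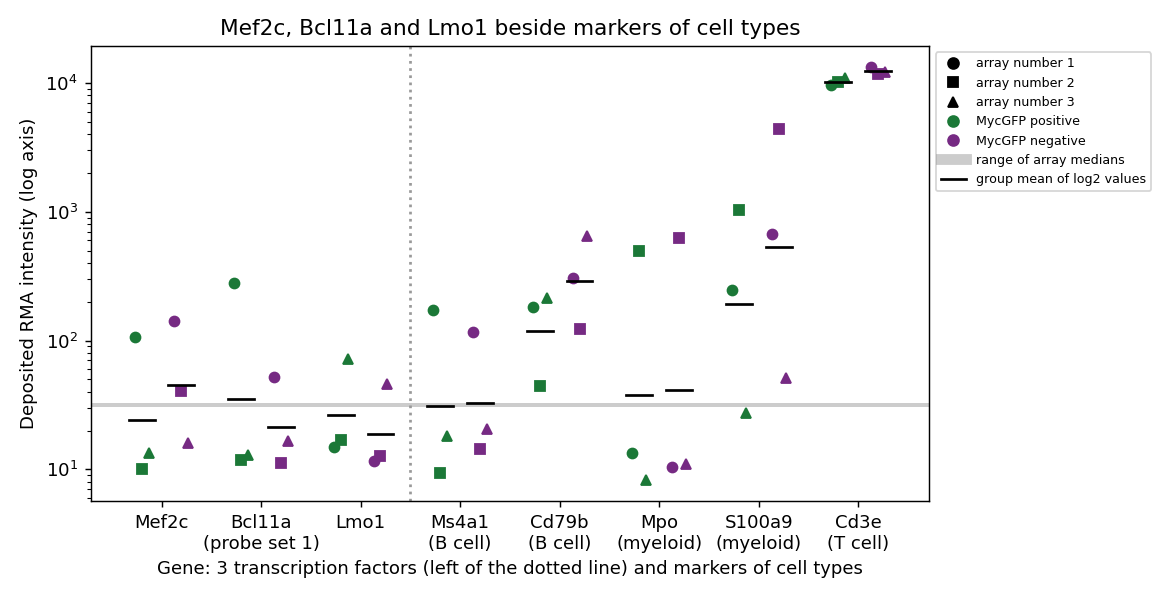
Deposited intensity (log axis) of Mef2c, the Bcl11a probe set with the highest single value and Lmo1, left of the dotted line, beside markers of B, myeloid and T cells, with MycGFP positive left of MycGFP negative and a symbol for each array number. Mef2c, this Bcl11a probe set and Ms4a1 are high on the arrays numbered 1, Lmo1 on those numbered 3 and Mpo on those numbered 2.

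No gene was called among 10 dendritic, 10 erythroid or megakaryocyte, 10 endothelial, 6 mast cell or basophil and 6 NK cell markers without the block. With it 3 of them passed (limma): Klk1, higher in MycGFP positive cells (adjusted p = 0.0396), and Pecam1 and Klrd1, lower (adjusted p = 0.0416 and 0.0410). The same block fit called 7.7% of all genes. The lists' brightest genes were Ly6d, Slc4a1, Pecam1, Gata2 and Gzma. The defining endothelial gene Cdh5, named after its values were seen, ran from 5.85 to 6.41 in MycGFP positive and from 6.43 to 7.44 in MycGFP negative cells. Summed endothelial markers were 364 to 445 in MycGFP positive and 509 to 831 in MycGFP negative cells, most of it from Pecam1, which some T cells also carry. The erythroid factor gene Klf1, likewise named afterwards, ran from 19.3 to 30.6 in MycGFP positive and from 17.2 to 29.0 in MycGFP negative cells.

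Genes of the proteins that the helix-loop-helix and LIM-only factors work with exceeded the median on at least 1 array in 20 of 21 cases, against 7 of the 10 members. The share of all genes that did so was not counted. On at least 3 arrays 10487 of 18193 genes exceeded it, and 5 of the 10 members. None of the 21 was called (limma), 2 had an unadjusted p under 0.05 with MycGFP positive cells higher (14.7% of all genes) and 1 with them lower, and their median log2 difference was -0.19. Ssbp2, which stabilises LDB1, had the smallest adjusted p. It read 914, 690 and 757 on positive arrays 1, 2 and 3, against 1911, 2332 and 1218 on negative arrays 1, 2 and 3. The groups did not overlap, and the log2 difference was -1.17, SE 0.27 (limma, adjusted p = 0.0592, 0.0652 with the block). Of 19 measured homeobox relatives and partners none was called and 1 was lower unadjusted, Pbx2, a partner of MEIS and HOX proteins, at 1103 ± 51.6 in MycGFP positive and 2248 ± 782 in MycGFP negative cells (SD, n = 3 each; limma adjusted p = 0.113).

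Among 15 ETS relatives none was called over all genes, while the unadjusted p was under 0.05 for 1 gene with MycGFP positive cells above and 6 with them below (14.7% and 7.35% of all genes), with a median log2 difference of -0.20. Etv5, an ETS gene often induced by growth factor signalling, read 489, 1998 and 1521 on positive arrays 1, 2 and 3, against 81.2, 324 and 188 on negative arrays 1, 2 and 3. The groups did not overlap, and its log2 difference was 2.74, SE 0.69 (limma, adjusted p = 0.0767), which passed with the block (adjusted p = 0.0262). Of 7 MEF2 relatives and class IIa deacetylases, the enzymes that MEF2 proteins recruit, 1 was called, Hdac7, against 1.51% of all genes called lower. In 2 of the 7 the unadjusted p (limma) was under 0.05 with positive cells lower, against 7.35% of all genes. In 2 all positive arrays lay below all negative ones, against 11.2%, and the opposite order was found in 0. Mef2d, a relative of Mef2c named after its values were seen, had a log2 difference of -1.24, SE 0.45 (limma, adjusted p = 0.173, and 0.0630 with the block). Hdac7, a deacetylase of thymocytes, read 822, 1105 and 1071 on positive arrays 1, 2 and 3, against 1942, 1910 and 1585 on negative arrays 1, 2 and 3. The groups did not overlap, and its log2 difference was -0.87, SE 0.17 (limma, adjusted p = 0.0433, and 0.0663 with the block). Of 13 BCL11 relatives and partners of the NuRD complex none was called. Rbbp7, a histone-binding subunit, had the smallest adjusted p, with 5520 ± 591 in MycGFP positive and 2978 ± 677 in MycGFP negative cells (SD, n = 3 each; limma adjusted p = 0.0579, and 0.0488 with the block).

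Genes described as targets of the members gave few calls. Of 15 measured targets of the TAL1 and LMO2 complex none was called and the median log2 difference was -0.33. The 15 include the members Lyl1 and Hhex, and Trib2 is counted in both target lists. In 6 of the 15 the unadjusted p (limma) was under 0.05 with the positive cells lower, against 7.35% of all genes. In 8 all positive arrays lay below all negative ones, against 11.2%. The opposite order was found in 0 of the 15, against 17% of all genes. Rag1, the recombinase gene, was 5804 ± 661 in MycGFP positive and 11881 ± 2863 in MycGFP negative cells (SD, n = 3 each; limma adjusted p = 0.0506). With the block 2 of the 15 were lower in MycGFP positive cells, against 1.95% of all genes. These were Arid5b (limma adjusted p = 0.0391) and Cd69 (0.0399), named for that change. Of 17 genes described as targets of PU.1, MEF2C or MEIS1, 2 rose and none fell, against 4.62% and 1.51% of all genes. A further 2, Nr4a1 and Trib2, named after their values were seen, had an unadjusted p under 0.05 with MycGFP positive cells lower. The 2 called were Il7r, the interleukin 7 receptor gene, with a log2 difference of 2.53 (SE 0.45, limma adjusted p = 0.0333), and Irf8, an interferon regulatory factor gene of myeloid and B cells. Irf8 read 92.6, 60.3 and 89.2 on positive arrays 1, 2 and 3, against 41.0, 33.7 and 41.2 on negative arrays 1, 2 and 3. All 3 positive arrays stood above all 3 negative ones, the log2 difference was 1.04, SE 0.21 (limma, adjusted p = 0.0438), and the call was lost when each array was centred on its median (adjusted p = 0.0735). The calls of Cd5, Hdac7 and Irf8 were lost when any 1 of the 6 arrays was left out, with adjusted p (limma) of 0.0764 to 0.127, 0.0584 to 0.125 and 0.0637 to 0.129. That of Il7r held only without negative array 2 (adjusted p = 0.0460), and was 0.0680 to 0.118 without each of the others.

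For the 5 members above the array median on at least 3 arrays, the genes with the most similar pattern were taken by Pearson's r of log2 values over the 6 arrays among 10487 genes. The arrays were taken as pairs by assumption. With so many genes high values arise for almost any pattern, so the names are a description. For Lyl1 they were Mfsd14b, Oas1e and Kcnj16 (r = 0.991 to 0.997), and for Mef2c Ascc3, Hmgn3 and Txndc11 (r = 0.982 to 0.987). For Spi1 they were Cpne2, Tmem43 and Rcbtb2 (r = 0.982 to 0.996), for Bcl11a Gps2, Top3a and Eml3 (r = 0.970 to 0.977), and for Lmo2 Slc66a1, Crybb3 and Tefm (r = 0.943 to 0.974). No member appeared among the nearest genes of another. Lmo1, Tal1, Hhex, Erg and Meis1 were too dim to be searched, and only 3 names were kept for each member. That absence therefore does not show whether members vary together.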

How the data were processed

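RNA of 6 sorted samples was hybridised to Affymetrix mouse arrays after amplification of 5 ng total RNA, per the labels' protocols. The authors deposited RMA intensities, linear rather than log2, per the submitters' processing notes; its version and settings are not given in the sources used here. Their log2 was tested.

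Names came from the platform's probe annotation, with symbols updated by Entrez identifier through RefSeq (34741 matched). Of 45037 probe sets without controls, 34945 had 1 symbol, 932 several and 9160 none. Each gene was represented by its probe set with the highest mean log2 value, and all probe sets were also fitted. The group difference was tested with lmFit and eBayes of limma 3.58.1 (R 4.3.3), two-sided, at a Benjamini-Hochberg adjusted p of 0.05. Degrees of freedom were 4 residual plus 2.17 prior, and the procedure was tested on simulated data.

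The members, gene lists and tests were chosen with earlier results of these data known. Named genes were all members, called list genes (or the smallest adjusted p of a list), the brightest markers and the nearest patterns.

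Arrays of the same number deviated together, with r = 0.38, 0.21 and 0.39 across genes, so the numbers were taken as pairs. The Y-linked gene Eif2s3y did not fully bear this out, at 125 on positive and 1038 on negative array 2. It read 185 on positive and 40.2 on negative array 3, and 2127 on positive and 3174 on negative array 1. The labels name no animal for an array, p-values cover the spread between these samples, and the number of arrays limits precision. The ratio of 3' to 5' Gapdh probe sets was 1.48 to 1.58 on positive and 1.58 to 1.89 on negative arrays, and that of Actb 1.72 to 1.85 on positive and 1.54 to 1.87 on negative arrays. Alternatives tried were the replicate block, leaving out arrays, and other probe set rules, scalings, filters, variance models and weights.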

Additional observations from a re-analysis of the deposited data

How the results depend on the processing

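No member gene was called in any of 17 alternatives, including those chosen after seeing the data, which left out both arrays numbered 1 or both numbered 2. The alternative that dropped dim genes tested only 5 of the 10 members, Lyl1, Lmo2, Mef2c, Bcl11a and Spi1. Of 165 differences so recomputed, 21 had the opposite sign, among them those of Lmo2, Hhex and Spi1 in 5 alternatives each. Leaving out 1 array gave -0.24 to 1.13 for Lmo1 and -1.95 to -0.06 for Mef2c on the log2 scale. Over all genes, 840 were higher and 275 lower; leaving out 1 array gave 0 to 862 higher and 0 to 238 lower. Without positive array 2 limma called 0 genes, with 3185 at an unadjusted p under 0.05. Without both arrays numbered 1, 310 were higher and 42 lower, and without both numbered 2, limma called 0 higher and 0 lower, with 2487 at an unadjusted p under 0.05. Median centring gave 502 higher and 381 lower, and moved the median of all genes to -0.14, against 0.01. Quantile normalization gave 510 higher and 383 lower. The replicate block gave 1047 higher and 354 lower and changed the calls of Hdac7, Cd5, Etv5, Rbbp7, Arid5b, Cd69, Cd79b, S100a9, Klk1, Pecam1 and Klrd1 as printed with them, and no other call among the listed genes. With a trended and robust variance 3 genes differed between array numbers (Lmo1 adjusted p = 0.0784), against 0 otherwise. The cause of these shifts was not tested. Most members were near background, which limits what their differences can show.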

Other observations

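Among other lymphoid genes Ly6d also split by array number, whereas Ccr9 did not split cleanly by it (named after their values were seen). Ly6d, a surface antigen gene of lymphoid progenitors and B cells, read 4976, 2324 and 378 on positive arrays 1, 2 and 3, against 5445, 3610 and 346 on negative arrays 1, 2 and 3. Both arrays numbered 3, where Lmo1 was high, were the low ones. Ccr9, a thymic homing receptor gene, read 954, 186 and 31.0 on positive arrays 1, 2 and 3, against 3855, 4756 and 186 on negative arrays 1, 2 and 3. It was lower on the positive array within each number, but the groups overlapped at positive array 1 and negative array 3, and its log2 difference of -3.09 was not called (limma, adjusted p = 0.361). Kit, a receptor of early progenitors described as a target of the complex, averaged 9.51 ± 2.49 in MycGFP positive and 10.6 ± 4.92 in MycGFP negative cells (SD, n = 3 each), both below the array medians (both genes named after their values were seen). Cd34, another progenitor gene, was also below them, at 9.31 ± 3.18 in MycGFP positive and 8.07 ± 0.857 in MycGFP negative cells (SD, n = 3 each).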
